A study of Homo sapiens with 6 samples.

Results

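KY170 is a human esophageal squamous cancer cell line, and the arrays of this parental line at 0, 8 and 24 h after irradiation are described here. The cells were unmodified, grown in culture and irradiated with a linear accelerator. For each time point 1 Illumina Human-6 V3 bead array is listed, so that KY170 takes 3 of the 6 arrays of the series, its 3 groups are groups of 1 and no value carries a replicate error. The comparison line KY170R is a radioresistant line derived from KY170 by repeated irradiation, with 1 array at each of the same times. The methods speak of profiling in triplicate, and whether a listed array stands for 1 hybridisation or for the mean of several is not stated, nor is the dose or the number of cultures. The labels give 0 h as a time point only, while a legend for another assay over the same times calls its first point one before irradiation.

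Each value is a linear, background-subtracted intensity of a probe, so that a probe without signal lies around 0 on either side. The lowest value on any array was -24.533, and its size, 24.533, served as the limit of measurement. A probe was taken as measured in KY170 if it exceeded this limit on at least 1 of the 3 KY170 arrays, and 18154 of 48803 probes (37.2%) did so. Of these, 13475 exceeded it on all 3 arrays, 2137 on 2 and 2542 on 1. The probes just inside were those of MPP1 and ZNF251, with a highest value of 24.54 each, and the one just outside was that of OR52K1, at 24.53. The measured probes included 14116 with a single gene symbol, which stand for 10872 genes. Values under the limit were set to it before the log2 was taken, so a fold against such a value is a lower bound and is given as "at least".

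The arrays had been normalized to each other before deposit: the median intensity was 6.46 to 6.47 and 32.3% of probes exceeded the limit on every array of both lines. The epithelial label was borne out by most of 8 markers, of which 6 exceeded the limit on all 3 KY170 arrays. KRT18, a keratin of simple epithelium, read 26354.1, 20125.8 and 24089.8 (0, 8 and 24 h, here and below). The adhesion proteins EPCAM (7426.9, 13329.0 and 14719.7) and CDH1 (3197.9, 4593.2 and 5759.8) were bright as well. KRT19 (93.8, 8.3 and 11.3) and CLDN4 (45.4, 14.6 and 6.9) exceeded the limit at 0 h only. Of the squamous markers, SFN lay between 2240.9 and 6009.0 and KRT15 between 686.8 and 3535.4, while the basal keratin KRT5 was dimmer (360.8, 483.8 and 483.8) and KRT14 stayed at or near the limit (5.9, 26.0 and 15.3). TP63, KRT6A and KRT17 were not analysed here. Markers of fibroblasts (2 of 10 measured), endothelial cells (3 of 8) and immune cells (3 of 9) were mostly under the limit. Their summed intensities were 273.0, 129.4 and 120.7 for fibroblasts, 349.6, 125.1 and 88.3 for endothelial cells and 1096.8, 690.9 and 371.4 for immune cells, the last almost all from the lysosomal protein CD68.

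Ionizing radiation breaks DNA. The kinases ATM and ATR sense the damage and signal through CHEK1 and CHEK2 to halt the cell cycle, most often at the entry into mitosis. In cells with working p53, this factor switches on genes such as CDKN1A, which encodes the cyclin-dependent kinase inhibitor p21. Genes needed for mitosis are normally transcribed late in the cycle, under the control of promoter elements called CCAAT boxes and CHR elements. Esophageal squamous cancers commonly carry mutations of the p53 gene.

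At 8 h, 2551 of the 18154 probes (14.1%) were at least 2-fold brighter than at 0 h and 2540 (14.0%) at least 2-fold dimmer. At 24 h there were 3086 brighter probes (17.0%) and 2819 dimmer ones (15.5%). Differences of at least 4-fold were found for 477 higher and 468 lower probes at 8 h, and for 546 higher and 380 lower probes at 24 h. For 451 and 504 of the higher and lower probes at 8 h, and 532 and 367 at 24 h, 1 of the arrays was at or under the limit. Counted as genes, each by its brightest probe, 1524 of 10872 genes (14.0%) were at least 2-fold higher and 1699 (15.6%) lower at 8 h, and 1941 (17.9%) were higher and 1819 (16.7%) lower at 24 h. The 8 h and 24 h comparisons share the single 0 h array, so an unusual 0 h array would enter both. The course over the arrays therefore only describes them: 1801 probes (9.92%) were at least 2-fold higher at both later times and 1696 (9.34%) lower at both. A further 749 were higher at 8 h only and 1267 at 24 h only, 826 were lower at 8 h only and 1122 at 24 h only. In the opposite direction at the 2 times were 19 probes, 18 of them lower at 8 h and higher at 24 h.

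The KY170R arrays, which have their own 0 h array, gave a second look at the same probes, in a line derived from KY170 and sampled at the same times. Of the probes at least 2-fold higher in KY170 at 8 h, 96.5% were also higher than 0 h in KY170R and 73.9% at least 2-fold so, against 44.2% and 16.8% of all 18154 probes. Of those lower at 8 h, 92.4% were lower in KY170R and 68.6% at least 2-fold (46.6% and 14.7% of all probes). At 24 h the shares were 96.9% and 77.5% for higher probes (42.7% and 20.9% of all) and 91.7% and 67.0% for lower probes (48.8% and 19.7% of all). A difference of at least 2-fold in the opposite direction was seen in KY170R for 3, 6, 9 and 27 probes of these 4 sets. Across the 18154 probes, which are not independent of each other, the differences from 0 h in both lines correlated at r = 0.817 at 8 h and 0.803 at 24 h. The labels and methods do not say how the 6 arrays were divided into batches, and a batch and a time point cannot be told apart.

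**Figure D1:**
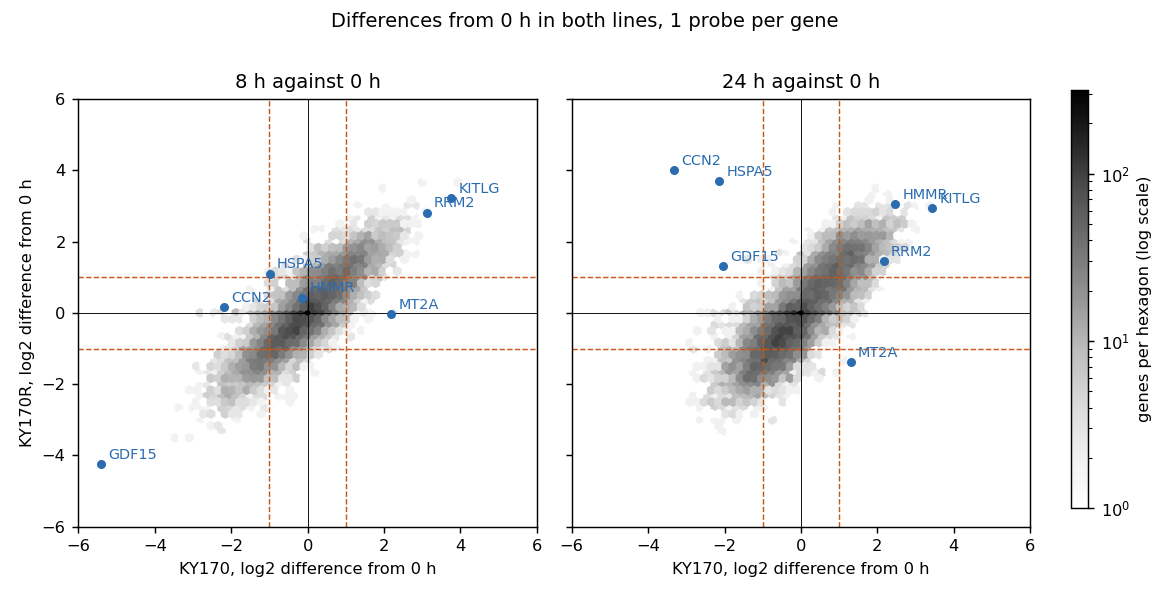
Log2 difference from 0 h in KY170 (horizontal) and KY170R (vertical) for 10872 genes at 8 h (left) and 24 h (right), each hexagon shaded by its number of genes on a log scale, with dashed lines at 2-fold. Most genes lie along the diagonal, RRM2 and KITLG far up in both lines, while CCN2, HSPA5 and MT2A lie off it at 24 h.

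Probes of the same gene gave a measure of probe error. For 1921 genes with at least 2 probes above the limit on all KY170 arrays, the log2 differences of the 2 brightest probes differed by 0.45 in the median at 8 h and 0.42 at 24 h (SD 0.81 at both). Where the brightest probe was at least 2-fold higher at 8 h, the next probe was higher too for 86.4% of 317 genes, and at least 2-fold higher for 50.2%, against 49.6% and 15.9% of all next probes. The corresponding shares were 92.1% and 57.5% for lower genes at 8 h, 88.3% and 52.8% for higher genes at 24 h and 91.6% and 63.7% for lower genes at 24 h. The direction was thus mostly shared between probes, and the size less so.

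Within KY170 alone, 1 array at each time allows no test of 8 h or of 24 h by itself. Both later arrays together were tested against 0 h. In limma, fitted to all 6 arrays with line, phase and their interaction (2 residual degrees of freedom), 0 of the 18154 probes passed an adjusted p of 0.05 in KY170 (0.0% of probes; smallest adjusted p = 0.132), while 4160 (22.9%) had an unadjusted p under 0.05, 1993 of them higher and 2167 lower. The difference between the lines in this contrast was not called for any probe either (0.0%; 707 at an unadjusted p under 0.05, smallest adjusted p = 0.999). With the lines averaged, in limma without the interaction, 2527 probes (13.9%) rose and 2327 (12.8%) fell at an adjusted p under 0.05, and 7501 had an unadjusted p under 0.05. Per gene, 1668 of 10872 (15.3%) rose and 1540 (14.2%) fell. In limma with line and time as terms (2 residual degrees of freedom), added after the other results were known, 8 h and 24 h were each tested with the lines averaged. At 8 h 3164 probes (17.4%) rose and 3111 (17.1%) fell, and at 24 h 4156 (22.9%) rose and 4071 (22.4%) fell, while 0 probes (0.0%) were called between 24 h and 8 h (4993 at an unadjusted p under 0.05, smallest adjusted p = 0.0646). Per gene, 2072 (19.1%) rose and 2145 (19.7%) fell at 8 h, and 2748 (25.3%) rose and 2722 (25.0%) fell at 24 h. Below, adjusted p-values come from the fit of the later arrays together with the lines averaged unless stated, and describe both lines. They are set against the spread between these arrays. That spread also holds real change between 8 and 24 h and differences between the lines in their change from 0 h.

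The largest measured difference at 8 h was that of GDF15, a secreted stress cytokine and p53 target. Its intensity was 4047.7 at 0 h, 94.9 at 8 h and 991.1 at 24 h, 42.6-fold and 4.08-fold lower. In KY170R it read 1634.9, 86.1 and 4042.4, so that both lines were low at 8 h and apart at 24 h (adjusted p = 0.301 for the later arrays together). CDKN1A read 4554.6, 1330.7 and 2863.8, which is 3.42-fold lower at 8 h and 1.59-fold lower at 24 h. The p53 targets lay on both sides of 0 h: of 26 genes on the array, 20 were measured, 2 were at least 2-fold higher and 4 lower at 8 h, and 3 were higher and 4 lower at 24 h, close to the shares over all genes (14.0% and 15.6% at 8 h, 17.9% and 16.7% at 24 h). The medians of the log2 difference were -0.13 and -0.32, against -0.02 and -0.06 over all genes. RRM2B, a ribonucleotide reductase subunit used for repair, was among the higher ones (71.4, 177.4 and 374.6; adjusted p = 0.0425). SESN2, a stress-responsive inhibitor of mTORC1 signalling, was lower (120.7, 7.5 and 36.5), at least 4.92-fold at 8 h. AKR1C3, the aldo-keto reductase on which the study centred, was 3.76-fold lower at 8 h and 1.88-fold lower at 24 h (2058.8, 546.8 and 1096.0; adjusted p = 0.275).

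**Figure D2:**
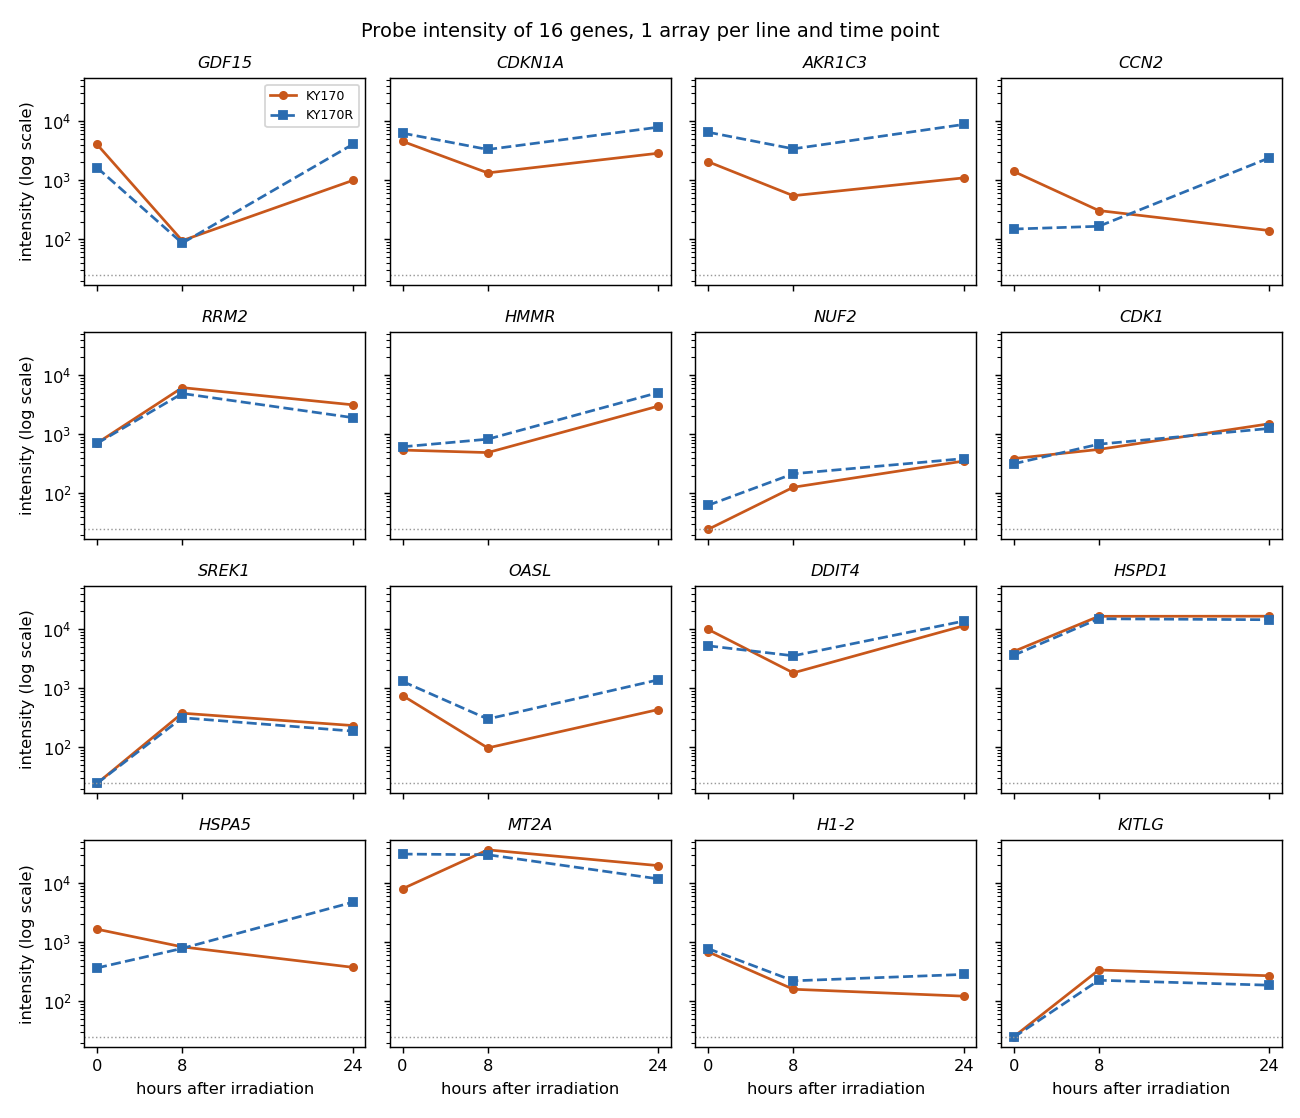
Probe intensity (log scale) at 0, 8 and 24 h after irradiation for 16 genes in KY170 (circles, solid) and KY170R (squares, dashed), 1 array per point, with values under the limit of 24.5 (dotted) drawn at it. GDF15, OASL and DDIT4 are lowest at 8 h in KY170, HMMR, NUF2 and CDK1 are highest at 24 h, and CCN2 and HSPA5 run in opposite directions in the lines.

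The G2/M and mitosis genes differed from 0 h mainly at 24 h. They encode mitotic kinases, motors, kinetochore and spindle proteins. All 48 genes of the list were measured. At 8 h, 5 were at least 2-fold higher and 5 lower (median log2 difference 0.02), whereas at 24 h, 24 were higher and 1 was lower (median 0.98; 17.9% and 16.7% of all genes). Over all 18154 probes, 1194 (6.58%) were at least 2-fold higher and 927 (5.11%) lower at 24 h than at 8 h, a comparison that does not involve the 0 h array. In it, 16 of the 48 were at least 2-fold higher at 24 h and 0 lower, with a median of 0.65, against 7.5% and 4.88% of all genes and a median of 0.00. In KY170R, 24 of the 48 were higher and 2 lower at 24 h than at 0 h, beside 2457 and 2292 of all 10872 genes. With the lines averaged, 10 rose and 2 fell in the later arrays together (15.3% and 14.2% of all genes). In the fit with time as a term, 14 rose and 7 fell at 8 h (29.2% and 14.6%, against 19.1% and 19.7%), 26 rose and 3 fell at 24 h (54.2% and 6.25%, against 25.3% and 25.0%), and 0 were called between 24 h and 8 h. In a whole culture, a larger share of cells in this phase and more of the RNA per cell cannot be told apart.

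HMMR, a receptor for hyaluronan that also binds the spindle, read 539.6, 489.2 and 2987.2, a 5.54-fold higher value at 24 h only, and its dimmer probe gave a log2 difference of 1.55. TOP2A, the topoisomerase that untangles sister chromatids, read 2846.4, 4112.8 and 10733.7 (3.77-fold), and CDK1, the kinase that drives entry into mitosis, read 387.1, 553.2 and 1502.8 (3.88-fold). NUF2, a kinetochore subunit, went from under the limit (21.3) to 126.6 and 351.4, at least 14.3-fold higher at 24 h (adjusted p = 0.0197). CENPE, a kinetochore motor, read 234.4, 393.4 and 1043.2 (adjusted p = 0.0357). All 5 were highest on the 24 h array, and NUF2 alone was already at least 2-fold above its 0 h value at 8 h.

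Not every member followed. SPC24, another kinetochore subunit, was the only member at least 2-fold lower at 24 h (3220.4, 888.3 and 1283.5; adjusted p = 0.0116). PLK1, a mitotic kinase, read 631.4, 250.7 and 330.1 (adjusted p = 0.0305), and CDC25C, the phosphatase that activates CDK1, read 483.4, 174.7 and 277.1 by its brightest probe (adjusted p = 0.0527). Its other probes read 495.4, 91.9 and 470.5, and 463.5, 62.9 and 265.2, so that all 3 were lower at 8 h and 1 was back near its 0 h value at 24 h. BUB1, a spindle checkpoint kinase, was 2.41-fold lower at 8 h and 1.88-fold higher at 24 h (382.7, 158.7 and 717.7). The cyclins CCNA2 and CCNB1 differed as well, with log2 differences of 1.61 and 0.36 at 24 h, the latter from a dim probe (68.0 to 87.4).

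**Figure D3:**
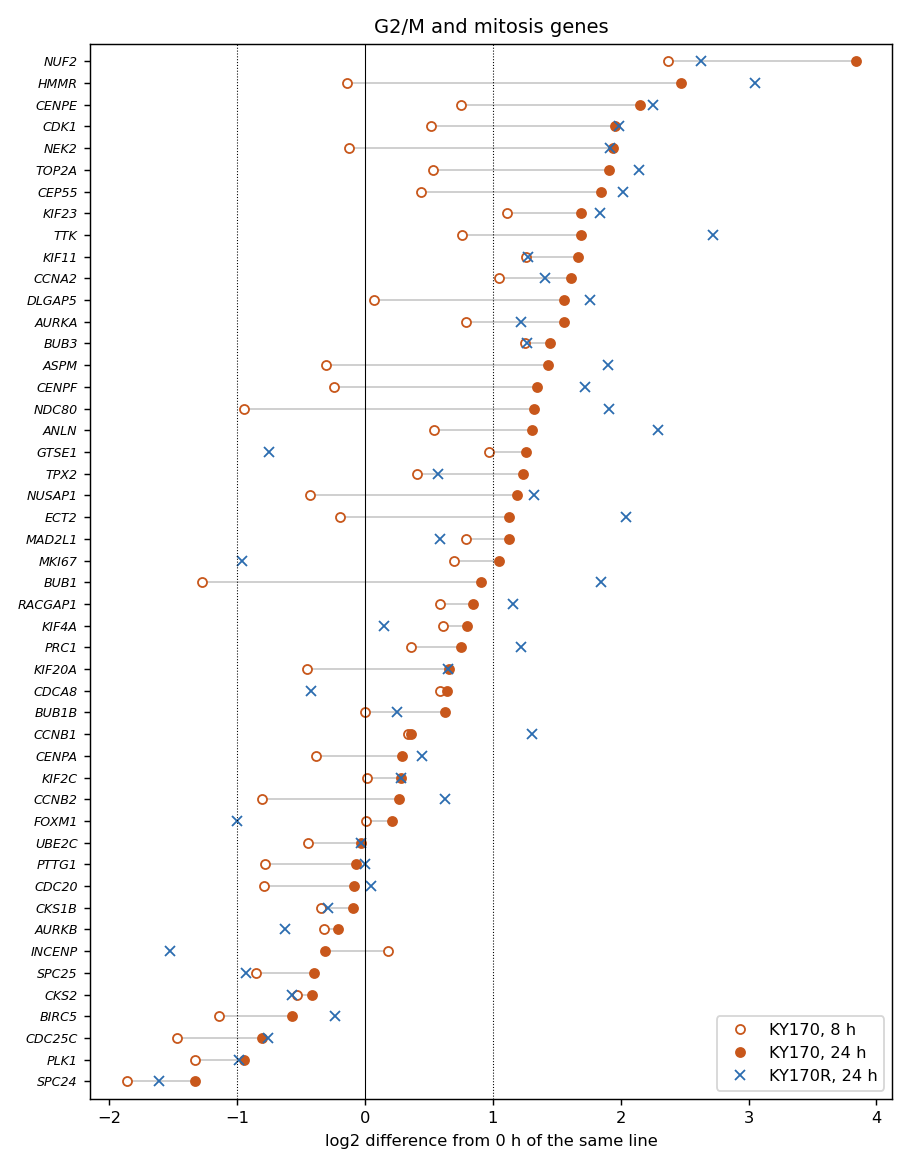
Log2 difference from 0 h for the 48 G2/M and mitosis genes in KY170 at 8 h (open circles) and 24 h (filled circles) and in KY170R at 24 h (crosses), sorted by the KY170 value at 24 h, with dotted lines at 2-fold. The filled circles of 24 genes lie beyond the upper line and that of SPC24 beyond the lower one.

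The promoters of these genes show what the list shares in sequence. The windows are RefSeq promoters of assembly GRCh38.p14, cut to the 250 bases before the start of the gene, and 40 of the 48 genes had one. CCAAT, searched with its reverse complement ATTGG, was present in 85.0% of them, against 32.9% of all 27305 promoters and 35.4% of those of the genes measured. TTTGAA, the core of the CHR element, searched with its reverse complement TTCAAA, was present in 62.5%, against 13.7% and 9.23%. The 38 measured genes of G1/S and DNA replication, by contrast, held TTTGAA in 2.86% of 35 promoters and CCAAT in 48.6%. The motifs did not separate members by their level: among the 20 promoters of genes at least 2-fold higher at 24 h, 80.0% held CCAAT and 60.0% TTTGAA, and among the 20 of the other members 90.0% and 65.0%. The median span in the genome was 34010 bases for the 24 genes of the list at least 2-fold higher at 24 h and 14341 for the other 24. The part of span in these values was not tested. A match is a description of the letters and not of binding. The 120 bases before the start are printed for 5 members that were higher at 24 h and for PLK1 and CDC25C, which were not. They run 5′ to 3′ on the strand of the gene, with CCAAT or ATTGG and TTTGAA or TTCAAA in capitals. All those printed hold both motifs, and apart from HMMR the 5 are not the members with the largest differences. CENPE (log2 difference 2.15 at 24 h) held neither motif in its 250 bases, and NEK2 (1.94) no TTTGAA. Within the 120 bases CDK1 (1.96) held neither and TOP2A (1.91) no TTTGAA. CEP55 (1.85) held both and is not printed.
HMMR (chr5:163460512-163460631, + strand): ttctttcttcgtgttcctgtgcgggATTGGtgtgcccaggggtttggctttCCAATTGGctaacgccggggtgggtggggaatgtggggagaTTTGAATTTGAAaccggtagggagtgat
KIF23 (chr15:69414229-69414348, + strand): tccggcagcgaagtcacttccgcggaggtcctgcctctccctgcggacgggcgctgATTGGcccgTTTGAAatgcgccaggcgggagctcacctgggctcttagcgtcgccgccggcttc
KIF11 (chr10:92593010-92593129, + strand): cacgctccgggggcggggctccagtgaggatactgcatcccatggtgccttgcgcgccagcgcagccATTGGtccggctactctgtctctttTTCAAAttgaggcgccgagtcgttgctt
DLGAP5 (chr14:55191586-55191705, - strand): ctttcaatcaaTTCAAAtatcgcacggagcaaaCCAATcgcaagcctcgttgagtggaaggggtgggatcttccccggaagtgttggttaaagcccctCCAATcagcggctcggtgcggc
ASPM (chr1:197146670-197146789, - strand): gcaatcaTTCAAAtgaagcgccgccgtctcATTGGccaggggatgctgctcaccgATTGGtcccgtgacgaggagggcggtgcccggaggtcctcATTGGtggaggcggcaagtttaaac
PLK1 (chr16:23678769-23678888, + strand): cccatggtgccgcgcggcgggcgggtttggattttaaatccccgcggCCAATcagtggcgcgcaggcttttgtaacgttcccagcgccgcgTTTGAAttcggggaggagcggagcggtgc
CDC25C (chr5:138331805-138331924, - strand): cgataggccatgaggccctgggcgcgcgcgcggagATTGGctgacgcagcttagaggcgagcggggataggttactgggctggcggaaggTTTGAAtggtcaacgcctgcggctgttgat
HMMR, DLGAP5 and ASPM hold CCAAT or its complement more than once. PLK1 and CDC25C hold each motif once, as KIF23 and KIF11 do, and their brightest probes were lower than at 0 h on both later arrays, while KIF23 (352.1, 761.9 and 1139.8) and KIF11 (330.3, 793.4 and 1051.3) were higher.

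Among genes of DNA replication, RRM2, the regulated subunit of ribonucleotide reductase, read 707.2, 6156.9 and 3149.9, 8.71-fold higher at 8 h and 4.45-fold at 24 h (adjusted p = 0.0185), and its partner RRM1 read 4463.2, 11549.7 and 10723.9. CDC25A, the phosphatase of the G1/S transition, was 4.57-fold higher at 8 h and 1.95-fold at 24 h (554.9, 2537.1 and 1084.5), and its other probe gave log2 differences of 2.61 and 1.15. Of the G1/S and DNA replication genes, 7 of 38 were at least 2-fold higher and 2 lower at 8 h, and 4 were higher and 2 lower at 24 h (14.0% and 15.6% of all genes at 8 h, 17.9% and 16.7% at 24 h), with medians of 0.21 and 0.35. Of 13 G1 cyclins, CDKs and inhibitors, 5 were higher and 1 lower at 8 h, and 4 were higher and 0 lower at 24 h. They included CDK6 (263.5, 910.7 and 1180.9; adjusted p = 0.0104), which pairs with D-type cyclins, and the pocket proteins RB1 (56.5, 136.8 and 323.0) and RBL1 (58.6, 204.6 and 339.8).

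Replication-dependent histone genes, whose transcripts are made in S phase, were lower at 24 h. Of 20 measured, 2 were at least 2-fold higher and 3 lower at 8 h, and 0 were higher and 10 lower at 24 h (medians -0.22 and -1.0). Over all genes, 14.0% were higher and 15.6% lower at 8 h, and 17.9% and 16.7% at 24 h. In the tenth of genes with the shortest span in the genome, 36.4% were lower at 24 h. The part of span in the values of this list was not tested. From 8 to 24 h, 7 of the 20 histone genes were at least 2-fold lower and 0 higher (4.88% and 7.5% of all genes). H1-2, a linker histone, read 689.0, 160.2 and 122.4 (5.63-fold lower at 24 h; adjusted p = 0.0116), and H3C8 read 362.9, 108.9 and 92.7 (adjusted p = 0.0154). The list also holds H1-10, a linker histone that is not made in S phase alone, which was lower on both later arrays (2582.0, 773.4 and 725.4). Histone genes are near-identical copies, and which of them a probe reads is uncertain.

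Damage signalling and repair genes were higher in part. Over all genes, 14.0% were at least 2-fold higher and 15.6% lower at 8 h, and 17.9% and 16.7% at 24 h. Of 16 checkpoint genes, 5 were at least 2-fold higher and 1 lower at 8 h, and 5 were higher and 0 lower at 24 h (medians 0.20 and 0.35). ATM itself read 93.2, 299.6 and 479.8, 5.15-fold higher at 24 h (adjusted p = 0.0118), with a second, dim probe at 20.2, 20.6 and 56.4. RAD17, which loads the checkpoint clamp, read 66.8, 317.2 and 428.8 and its second probe moved alike (log2 differences 2.29 and 2.76; adjusted p = 0.0104 for the first). CHEK1 read 562.2, 1228.1 and 1526.2 (adjusted p = 0.0133). Of 22 genes of double-strand break repair, 6 were higher and 1 lower at 8 h, and 9 were higher and 4 lower at 24 h (medians 0.18 and 0.69). In the averaged fit 9 of the 22 rose and 1 fell (15.3% and 14.2% of all genes).

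Among the repair genes, BARD1, the partner of BRCA1, read 376.1, 1326.4 and 1678.2 (adjusted p = 0.0104). NBN, of the complex that binds broken ends, read 586.4, 2268.5 and 2292.6 (adjusted p = 0.0116), and BLM, a helicase of recombination, read 127.0, 318.7 and 388.0 (adjusted p = 0.0127). The recombination factor XRCC2 was lower on both later arrays (546.9, 314.5 and 132.4). The median span of the 22 genes in the genome was 51921 bases, against 27864 over all genes measured, and span moved with the differences over all genes, as given below. Its part in the values of this list was not tested.

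Genes of SR splicing factors and CLK kinases, which control splice site choice, were higher at both times. Of 28 measured, 14 were at least 2-fold higher and 0 lower at 8 h, and again 14 and 0 at 24 h (median log2 difference 1.02 at both, 14.0% and 17.9% of all genes higher). In KY170R, 16 were higher and 0 lower at each time. Of all 10872 genes, 1993 were at least 2-fold higher and 1752 lower in KY170R at 8 h, and 2457 and 2292 at 24 h. In the averaged fit of the later arrays together, 16 of the 28 rose and 0 fell (15.3% and 14.2% of all genes). In the fit with time as a term, 18 rose and 0 fell at each time (64.3%, against 19.1% of all genes at 8 h and 25.3% at 24 h). RSRP1 read 11.3, 323.3 and 432.9, from under the limit to at least 13.2-fold and 17.6-fold higher, and SREK1, a splicing regulator, read 17.8, 378.4 and 233.7 (adjusted p = 0.0104 for both). The other probes of SREK1 gave smaller log2 differences, 1.17 and 0.89 at 8 h and 1.03 and -0.07 at 24 h. SRSF3 (506.3, 2239.4 and 1719.5; adjusted p = 0.0154) and SRSF6 (1342.5, 4900.3 and 3633.0; adjusted p = 0.0115), core SR proteins, were bright on all arrays and at least 2.71-fold higher on both later ones. CLK4, a kinase of SR proteins, went from 14.2 to 100.2 and 98.1 (adjusted p = 0.0115). PRP4K, a splicing kinase outside the list, read 10.8, 223.6 and 286.3. The median span of the 28 genes, 23935 bases, was below that of all genes measured.

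Interferon-stimulated genes were low at 8 h and divided at 24 h. Of 28 measured, 0 were at least 2-fold higher and 17 lower at 8 h (median -1.27; 15.6% of all genes were lower). At 24 h, 7 were higher and 9 lower (median -0.59; 17.9% and 16.7% of all genes). From 8 to 24 h, 12 of the 28 were at least 2-fold higher and 0 lower (7.5% and 4.88% of all genes). In KY170R, 4 were higher and 10 lower at 8 h (median -0.29), beside 1993 and 1752 of all 10872 genes. In the fit with time as a term, 0 rose and 12 fell at 8 h (0.0% and 42.9%, against 19.1% and 19.7% of all genes). At 24 h, 7 rose and 8 fell (25.0% and 28.6%), close to the shares over all genes (25.3% and 25.0%). Between 24 h and 8 h, 0 were called. OASL, an antiviral oligoadenylate synthetase-like protein, read 753.3, 97.6 and 435.6, and its second probe gave a log2 difference of -2.42 at 8 h. IRF1, a transcription factor of the interferon response, read 1598.2, 315.4 and 674.6, 5.07-fold lower at 8 h. A different course was seen for IFIT3 (158.2, 188.2 and 725.7), IFI44 (117.5, 115.2 and 458.4) and IFIH1, a sensor of double-stranded RNA (34.2, 25.1 and 132.3), which were within 2-fold of their 0 h value at 8 h and at least 3.87-fold higher at 24 h. A second probe of IFIT3 was higher at 8 h already (23.2, 100.2 and 451.8). ISG20, a ribonuclease, stayed low at 24 h (552.6, 182.3 and 159.5; adjusted p = 0.0154).

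NF-kB targets and cytokines were also lower at 8 h, 9 of 17 at least 2-fold and 0 higher (median -1.04). At 24 h, 6 of them were lower and 0 higher (median -0.76). Over all genes, 15.6% were lower and 14.0% higher at 8 h, and 16.7% and 17.9% at 24 h. IL1B, an inflammatory cytokine, read 5274.1, 811.2 and 3119.5, and the chemokine CXCL8 read 3155.3, 632.7 and 1581.0, with its second probe at a log2 difference of -2.27 at 8 h. The NF-kB subunit gene NFKB2 stayed lower at both times (317.6, 123.7 and 137.3; adjusted p = 0.0237). Of 20 ATF4 and CHOP targets, genes of the amino acid and unfolded protein stress response, 10 were lower and 0 higher at 8 h (median -1.07), and 4 were lower and 1 higher at 24 h (median -0.41). DDIT4, an inhibitor of mTORC1 signalling, read 9938.3, 1822.5 and 11407.8, 5.45-fold lower at 8 h and 1.15-fold higher at 24 h. TRIB3, a pseudokinase, read 1740.6, 292.5 and 624.8, and DDIT3, which encodes CHOP, read 922.3, 351.1 and 375.4. In KY170R the same 20 genes had medians of -0.05 and 0.99, and 1 was lower at 8 h, beside 1752 of all 10872 genes. The probes of ATF4 itself disagreed: the brightest gave a log2 difference of -1.33 at 8 h and a dim one 2.11.

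**Figure D4:**
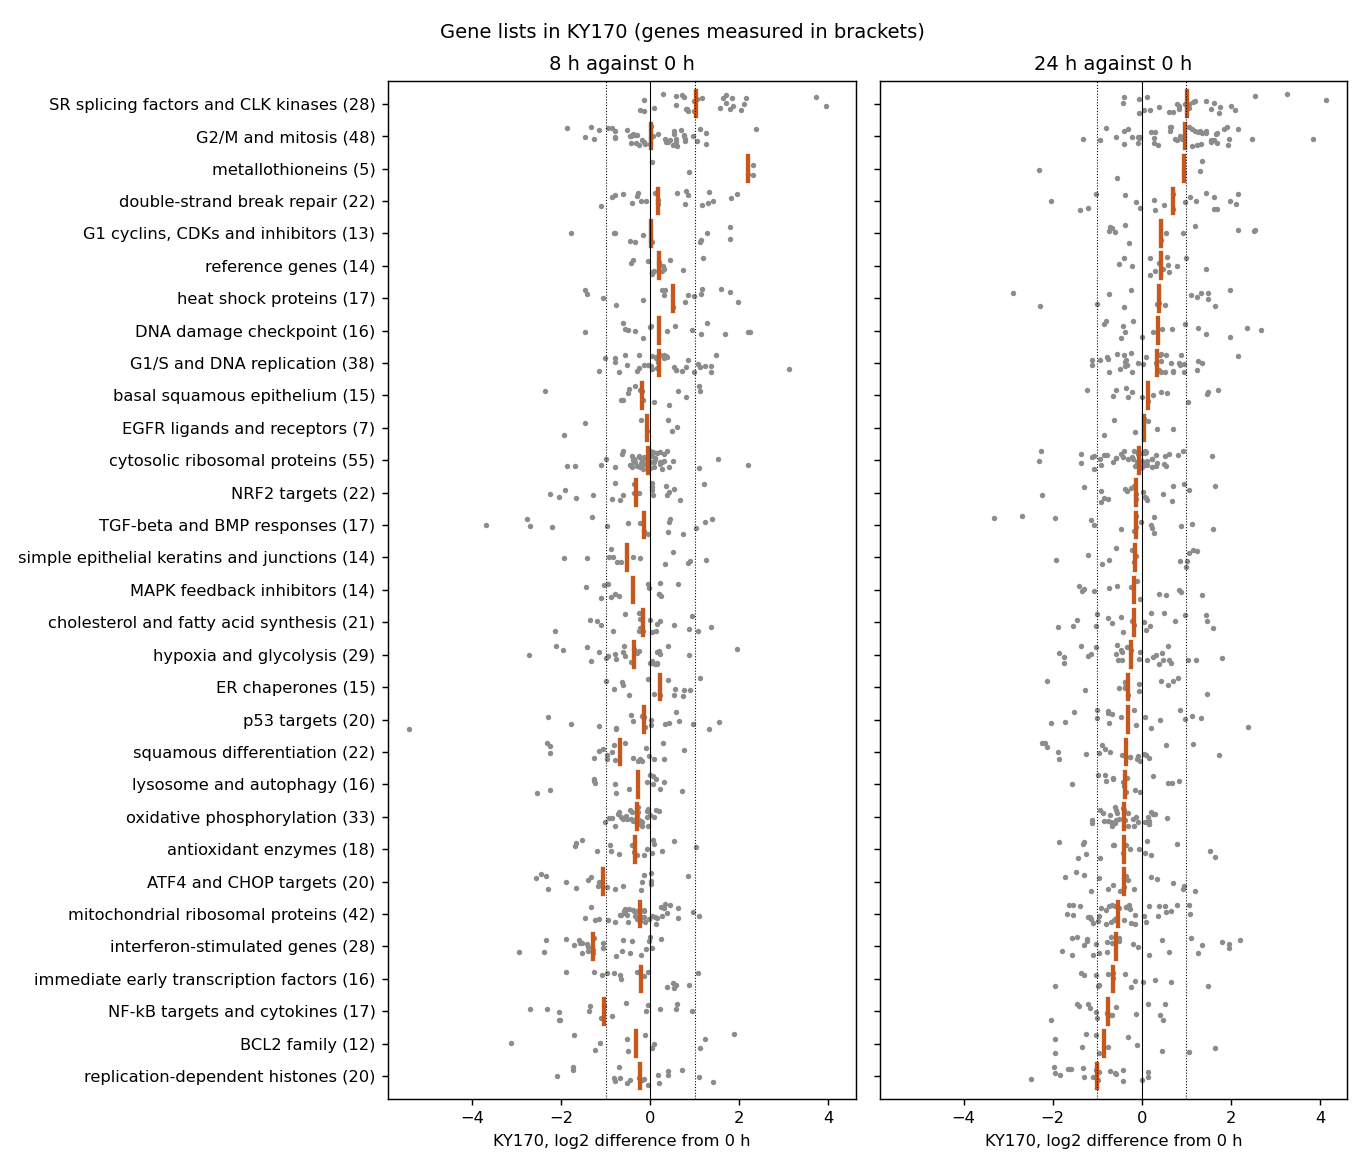
Log2 difference from 0 h in KY170 at 8 h (left) and 24 h (right) for the measured genes (grey points) of 31 lists, with the number of genes in brackets, the list median as a bar and dotted lines at 2-fold. The SR splicing and CLK list has medians of 1.02 at both times, G2/M and mitosis moves from 0.02 to 0.98, and interferon-stimulated genes lie lowest at 8 h.

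A low value at 8 h followed by a higher one at 24 h was not limited to these lists. Of the 1699 genes at least 2-fold lower at 8 h, 314 (18.5%) were at least 2-fold higher at 24 h than at 8 h, and of the 1524 higher at 8 h, 150 (9.84%) were at least 2-fold lower at 24 h than at 8 h. These shares follow from an array that enters both differences and are given as a description. Several of the genes with the largest 8 h differences had this course. The channel-activating protease PRSS8 read 1219.6, 60.7 and 528.7, 20.1-fold lower at 8 h. The adaptor GRB7, which binds ERBB receptors, read 1319.1, 66.0 and 760.6, and its second probe gave a log2 difference of -3.88. ELF3, an epithelial transcription factor, read 2341.8, 151.8 and 1002.3, and the receptor ERBB2 (1785.6, 464.9 and 1154.1) was lowest at 8 h as well, while a second, dim probe of ERBB2 gave a log2 difference of 0.58. The 3 probes of ERBB3 disagreed at 24 h, with log2 differences of 0.04, -2.06 and -1.24, and no course is given for it. The autophagy genes ULK1 (1074.4, 225.9 and 818.5) and GABARAPL1 (607.3, 104.0 and 343.0) followed the same order. The genes YPEL3 (512.0, 27.1 and 97.2; adjusted p = 0.0346), LRRC20 (460.0, 33.0 and 163.9) and MMP28, a metalloproteinase (450.3, 36.4 and 184.3), were, with COXFA4L2, the others of the 8 largest measured differences to the lower side at 8 h.

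COXFA4L2, a mitochondrial protein gene induced by low oxygen, stayed low at both times (846.6, 67.6 and 52.5, 12.5-fold and 16.1-fold lower) and read 125.0, 34.6 and 218.2 in KY170R. TERC, the RNA component of telomerase, was 9.77-fold lower at 24 h (771.2, 131.9 and 78.9; adjusted p = 0.0104). The largest bounds among lower genes at 8 h were those of CATSPER1 (433.7, 20.9 and 39.9), TNFAIP8L1 (331.2, 3.6 and 48.9), the tight junction gene CLDN3 (330.3, 19.1 and 55.3), SMAD6, an inhibitor of BMP signalling (316.0, 9.9 and 81.8), and RNF215 (305.5, 17.4 and 22.6). In 3 of the genes with the largest values at 24 h the probes disagreed. The bright probe of TDP1 read 4364.4, 1157.7 and 318.1, while its other measured probes gave log2 differences of 0.89 and 1.11 at 24 h. That of SEMA3E read 4411.9, 1037.3 and 346.8 and its other probe 12.7, 16.4 and 51.2. That of CDC14B read 5406.0, 920.5 and 491.6 and its others gave 1.69 and 1.07. No direction is given for these genes. PRL and GH1, pituitary hormone genes, read 677.9, 85.3 and 3.4, and 222.8, 30.1 and 10.2, by 1 probe each, and VSIR and PLA2G10 were at least 8.44-fold and 7.99-fold lower at 24 h. GNB1L was 9.77-fold lower at 24 h.

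Among the genes higher at both times, KITLG, the ligand of the receptor KIT, read 25.0, 339.3 and 271.0, 13.6-fold and 10.8-fold higher (adjusted p = 0.0104), and its second probe went from under the limit to 133.7 and 72.1. TTC14 read 44.5, 666.3 and 414.4, with its second probe at log2 differences of 2.87 and 2.5. CAPRIN2, an RNA-binding protein, read 58.8, 446.4 and 534.2 (adjusted p = 0.0104) and its second probe gave 1.87 and 2.10. IPO7, a nuclear import receptor, read 58.4, 610.2 and 427.9, and LTB4R, a leukotriene receptor, read 35.1, 404.8 and 464.6. USP1, a deubiquitinase of DNA repair, was 12.4-fold higher at 8 h by 1 probe (83.0, 1027.8 and 602.3) and had a log2 difference of 0.85 by another. RAB12, a small GTPase, likewise gave 3.52 by 1 probe and 1.29 by another at 8 h, and ZDHHC11 gave 3.53 by 1 probe while another stayed at the limit. Still larger at 24 h than at 8 h were GOLGA8B (105.4, 563.6 and 1714.5), DMXL2 (67.8, 262.2 and 715.2) and LRRC58 (80.8, 192.6 and 838.2). GOLGA8B and AGAP4 (16.5, 384.7 and 330.7) belong to families of near-identical copies, and which copy was read is uncertain, and the second probe of AGAP4 gave smaller log2 differences (0.85 and 1.21). P2RY11, a purine receptor, was at least 17.2-fold higher at 8 h (10.2, 421.2 and 41.9), and SNORD30, a small nucleolar RNA, read 11.6, 242.6 and 125.4.

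Chaperones help proteins fold, and those of the cytosol and mitochondria were counted apart from those of the endoplasmic reticulum. The shares over all genes were 14.0% higher and 15.6% lower at 8 h, and 17.9% and 16.7% at 24 h. Of 17 heat shock protein genes, 5 were at least 2-fold higher and 3 lower at 8 h, and 7 were higher and 2 lower at 24 h. HSPD1, the mitochondrial chaperonin, read 4189.6, 16527.7 and 16604.3 (adjusted p = 0.0104) and was higher by all 3 of its measured probes. HSPH1 (907.7, 2731.0 and 2528.1) and DNAJA1, a co-chaperone of HSP70 (3213.1, 11096.1 and 9981.4), behaved alike, both at an adjusted p of 0.0104. HSF1, the transcription factor of the heat shock response, was lower by both probes (534.8, 198.1 and 72.0 for the brighter). Of 15 genes of endoplasmic reticulum chaperones, 1 was higher and 0 lower at 8 h, and 1 was higher and 2 lower at 24 h. HSPA5, the main chaperone of that compartment, read 1664.5, 835.9 and 376.9, and in KY170R 367.6, 787.4 and 4760.2.

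Of 12 measured BCL2 family genes, which set the threshold for apoptosis, 3 were at least 2-fold higher and 4 lower at 8 h, and 2 were higher and 5 lower at 24 h (median -0.85). Over all genes the shares were 14.0% and 15.6% at 8 h, and 17.9% and 16.7% at 24 h. In the averaged fit 2 of the 12 rose and 5 fell (15.3% and 14.2% of all genes). The survival factor MCL1 read 284.9, 1049.8 and 888.1 (adjusted p = 0.0128) and was higher by its second probe too, at log2 differences of 1.30 and 1.05. The death-promoting members HRK (214.5, 7.9 and 54.9; adjusted p = 0.0252), BIK (431.7, 132.6 and 110.7; adjusted p = 0.0174) and BAD (1998.3, 850.3 and 782.5; adjusted p = 0.011) were lower, BAD by all 3 probes. BID, another death-promoting member, was higher by its brightest probe (444.7, 964.9 and 933.0) and had log2 differences of -0.18 and 0.03 by its second.

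Genes of the oxidative stress response were counted in 2 lists. Of 22 NRF2 targets, 1 was at least 2-fold higher and 5 lower at 8 h, and 2 were higher and 2 lower at 24 h. Of 18 antioxidant enzymes, 1 was higher and 4 lower at 8 h, and 2 were higher and 5 lower at 24 h. Over all genes, 14.0% were higher and 15.6% lower at 8 h, and 17.9% and 16.7% at 24 h. Thioredoxin reductase TXNRD1 read 2588.9, 3733.2 and 8150.7, and the glutathione peroxidase GPX2, a member of both lists, read 1176.7, 369.6 and 473.1 (adjusted p = 0.0126). HMOX1, the heme oxygenase, went from 116.9 to under the limit at 15.4 and 16.6. Of 5 measured metallothioneins, small metal-binding proteins, 3 were at least 2-fold higher and 0 lower at 8 h (14.0% and 15.6% of all genes), and 2 were higher and 1 lower at 24 h. MT2A read 8056.1, 36699.6 and 19855.8, MT1X read 6502.6, 32093.2 and 12499.0 and MT1E read 2629.5, 13105.0 and 6753.2. MT1F read 1722.3, 1773.4 and 349.5, and MT1G, a dim probe, had log2 differences of 0.87 and -0.55. Sequences of this family are alike, and which member a probe reads is uncertain. In KY170R MT2A read 31140.4, 30334.4 and 11851.7, without the brighter value at 8 h.

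CCN2, a matricellular protein of connective tissue growth, ran in opposite directions in the lines. In KY170 it read 1412.0, 306.5 and 140.6, 4.61-fold and 10.0-fold lower, and its second probe gave log2 differences of -2.03 and -3.06. In KY170R it read 149.1, 166.0 and 2388.4. The difference between the lines, -4.84 on the log2 scale, had an adjusted p of 0.999 in limma. Of the 17 measured TGF-beta and BMP response genes, CCN2 among them, 3 were at least 2-fold higher and 5 lower at 8 h, and 2 were higher and 5 lower at 24 h (medians -0.15 and -0.13; 14.0% and 15.6% of all genes at 8 h, 17.9% and 16.7% at 24 h). ID1 (5695.9, 837.2 and 2702.1), by both its probes, and ID3 (6039.9, 2434.5 and 2717.2; adjusted p = 0.023), inhibitors of differentiation, were lower at both times. SKIL, a repressor of SMAD signalling, was higher at 24 h (30.5, 51.1 and 92.1), as was the receptor TGFBR2 (log2 difference 1.12). Of 16 immediate early factors, 1 was higher and 3 lower at 8 h, and 1 was higher and 4 lower at 24 h. EGR1 read 150.0, 194.3 and 61.0, and MAFF read 703.4, 332.3 and 183.5 (adjusted p = 0.0486), with a dimmer probe on the other side at 8 h (log2 difference 0.57). Of 14 MAPK feedback inhibitors, 0 were higher and 3 lower at 8 h, and 1 was higher and 4 lower at 24 h, with DUSP1 at 4036.1, 1877.3 and 1641.3.

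Squamous differentiation genes encode cornified envelope and calcium-binding proteins. Of 37 on the array 22 were measured. At 8 h, 0 were at least 2-fold higher and 6 lower, and at 24 h, 2 were higher and 6 lower (medians -0.68 and -0.36). The shares over all genes were 14.0% and 15.6% at 8 h, and 17.9% and 16.7% at 24 h. The calcium-binding protein S100A9 read 1173.9, 236.9 and 315.9, and its partner S100A8 went from 116.8 to under the limit (adjusted p = 0.0104 for both). Of 15 basal squamous genes, 2 were higher and 1 lower at 8 h, and 4 were higher and 1 lower at 24 h, with KRT15 lower (3535.4, 686.8 and 1499.0) and the desmosomal cadherin DSC3 higher (428.3, 926.1 and 1406.0; adjusted p = 0.0404). Simple epithelial keratins and junctions had 1 higher and 2 lower of 14 at 8 h, and 4 higher and 2 lower at 24 h.

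Metabolic and ribosomal genes came last. Their counts stand beside shares over all genes of 14.0% higher and 15.6% lower at 8 h, and 17.9% and 16.7% at 24 h. Of 29 hypoxia and glycolysis genes, 1 was at least 2-fold higher and 7 lower at 8 h, and 3 were higher and 7 lower at 24 h. NDRG1 was 6.58-fold lower at 8 h (544.2, 82.8 and 211.3), whereas PFKFB4, which makes an activator of glycolysis, was higher (281.6, 1093.4 and 976.4; adjusted p = 0.0104). Of 21 cholesterol and fatty acid synthesis genes, 2 were higher and 4 lower at 8 h, and 3 were higher and 4 lower at 24 h: SQLE read 901.0, 2315.7 and 2476.4 and FDPS read 436.3, 169.8 and 117.4. Of 33 genes of oxidative phosphorylation 0 were higher, 1 was lower at 8 h and 2 at 24 h (medians -0.29 and -0.39). In the fit with time as a term, 1 of the 33 rose and 17 fell at 24 h (3.03% and 51.5%, against 25.3% and 25.0% of all genes). Of 42 mitochondrial ribosomal protein genes 1 was higher and 4 lower at 8 h, and 2 were higher and 9 lower at 24 h (medians -0.22 and -0.54). In the same fit 6 of the 42 rose and 21 fell at 24 h (14.3% and 50.0%). Of 55 cytosolic ribosomal protein genes 3 were higher and 3 lower at 8 h, and 1 was higher and 7 lower at 24 h (medians -0.05 and -0.06), RPS28 (1614.6, 443.2 and 324.3) and RPL23 (815.0, 252.2 and 169.4) most of all. Among 16 lysosome and autophagy genes, 5 were lower at 8 h and 1 at 24 h, with 0 higher. EGFR ligands and receptors had 2 lower and 0 higher of 7 at 8 h and 0 of either at 24 h. Of 14 reference genes, only YWHAZ was at least 2-fold off, and it was higher at both times (10590.2, 23914.7 and 28775.9). The list's medians were 0.20 and 0.42.

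A property that the choice of probes did not use separated higher from lower genes. The span of a gene in the genome, from the RefSeq annotation of GRCh38.p14, had a median of 27864 bases over the 10862 genes with a value. It was 38780 bases for genes at least 2-fold higher at 8 h and 17251 for lower ones, and 53016 and 12072 bases at 24 h. When the genes were divided into 10 equal groups by span, in the group with the shortest (62 to 4317 bases), 3.40% were at least 2-fold higher and 36.4% lower at 24 h, with a median log2 difference of -0.72. In the group with the longest (148308 to 2220167 bases) 28.5% were higher and 7.27% lower, with a median of 0.43. At 8 h the medians of these groups were -0.38 and 0.07. Across genes, which are not independent of each other, Spearman's rho between span and the difference was 0.199 at 8 h and 0.372 at 24 h. In KY170R it was 0.295 and 0.412, with medians of 53338 and 11101 bases for genes higher and lower at 24 h. Promoter GC content differed little, with a median of 64.4% for all genes measured, 63.6% for genes higher and 65.2% for genes lower at 24 h.

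**Figure D5:**
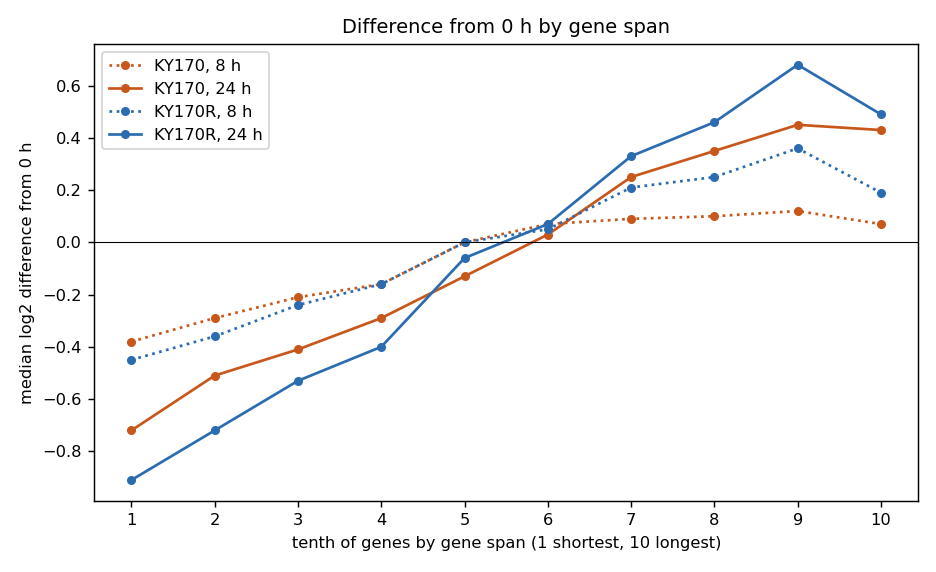
Median log2 difference from 0 h (vertical) for genes in 10 equal groups by gene span (horizontal, 1 shortest to 10 longest, 1086 or 1087 genes each), in KY170 and KY170R at 8 h (dotted) and 24 h (solid). The shortest genes lie below 0 at both times in both lines and, at 24 h in KY170, the medians go from -0.72 to 0.43.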

How the data were processed

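RNA of KY170 and KY170R cells at 0, 8 and 24 h after irradiation was measured on 6 Illumina Human-6 V3 arrays, 1 for each line and time. The deposited values are probe intensities that the authors obtained with Illumina BeadStudio, on a linear scale, background-subtracted and normalized between arrays. The normalization method, the BeadStudio version and whether a value pools repeat arrays are not given in the sources used here. Normalization to like distributions can hide a shift common to most genes. Bead numbers and other measures of depth are unknown, and the single array of each time point limits the precision.

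All value columns were mapped to samples by their labels (0 value columns not used). Values under 24.533 were set to it, log2 was taken and differences from 0 h were formed for 18154 probes. Of the 48803 probes, 27578 had 1 gene symbol in the platform annotation, 13 several and 21212 none, and 27541 were found in RefSeq. A gene was read by its probe with the highest mean in KY170. Differences of at least 2-fold were counted without a test. limma 3.58.1 in R 4.3.3 (trend, robust, Benjamini-Hochberg adjustment) was fitted to line, phase (later against 0 h) and their interaction. Counts, promoters and figures used Python 3.11.15 with numpy 2.4.6, pandas 2.3.3, scipy 1.17.1 and matplotlib 3.10.9. The fitting script was tested on simulated data.

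The members and lists were chosen with earlier results of these data known. For each time and direction, the 8 genes with the largest difference measured on both arrays and the 5 with the largest bound were named, with up to 4 members of each list with the largest difference, and AKR1C3. Further list members were named after their values were seen, as were the comparison of 24 h with 8 h, the limma fit with line and time as terms and the promoters printed. Alternatives were the floor, the filter, the fold, the normalization, the choice of probe, the prior variance, the model without interaction and the methods' t-test.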

Additional observations from a re-analysis of the deposited data

Results flagged for a closer look

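In 3 named genes KY170 lay at least 2-fold on one side of 0 h at both later times and KY170R, by any size, on the other side at both. At 8 h the KY170R log2 differences were small: 0.16 for CCN2, -0.25 for MT1E and -0.04 for MT2A. Each was under the 0.45 by which 2 probes of a gene differed in the median. At 24 h they were 4.0, -2.13 and -1.39, so the lines parted in direction mainly at 24 h. For CCN2 the change from 0 h to the later arrays in KY170 minus that in KY170R was -4.84 on the log2 scale (limma, unadjusted p = 0.176). For MT1E it was 3.03 (unadjusted p = 0.128) and for MT2A 2.46 (unadjusted p = 0.113). The adjusted p was 0.999 for each, so the test of the difference itself did not pass for any of them. Over all genes, 2203 were at least 2-fold on the same side of 0 h at both times in KY170, and 9 of them (0.409%) lay on the opposite side in KY170R at both. With 1 array in each group no value could be compared with others of its own group.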

How the results depend on the processing

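No paired analysis was possible because the labels give no replicate numbers. Times were set against each other within lines by the line term of limma. With 1 array for each line and time no replicate could be left out. The counts of higher and lower probes stayed within 1.5 times under quantile normalization, median centring, cyclic loess, a floor at 2 times the limit and the filter on all 3 KY170 arrays. Because the deposited arrays already had like distributions, quantile normalization and median centring could change little in counts or directions. Cyclic loess was fitted on the 12565 probes above the limit on all 6 arrays, because 60.3% of probes lie at the floor on every array. At 1.5-fold there were 4438 higher and 4486 lower probes at 8 h, 4820 and 5048 at 24 h, and 3172 and 3459 at both times. At 4-fold there were 477 and 468 at 8 h, 546 and 380 at 24 h, and 255 and 165 at both. Counted as genes, 1524 were higher at 8 h, 1941 higher and 1819 lower at 24 h, and 1093 and 1110 higher and lower at both, fewer because fewer units are counted. For the later arrays against 0 h, limma called 0 probes, but 2426 without a filter, where probes at the floor on every array enter the prior variance, 491 with trend and no robust prior, and 4854 with the lines averaged. With line and time as terms and the lines averaged, added after seeing the data, it called 6275 at 8 h and 8227 at 24 h. The methods' t-test on KY170 alone called 1143 after Benjamini-Hochberg adjustment (40 higher, 1103 lower), of which 1071 had no spread because both later arrays lie at the floor, and 2471 at an unadjusted p under 0.05. For the difference between lines limma called 0 probes, and 1444 without a filter. Beyond these constructions the cause was not tested. With only probes above the limit on all 6 arrays, chosen after seeing the data for the tests, limma again called 0 of 12565. The share of KY170 differences with the same direction in KY170R was then 97.6% and 96.7% for higher and lower probes at 8 h and 98.0% and 95.3% at 24 h, and with a floor of 1 it was 92.2%, 89.1%, 94.5% and 88.7%. The balance of higher to lower turned in some: at 24 h it was lower at 1.5-fold, and at 8 h at 1.5-fold, with cyclic loess (2446 higher, 2575 lower) and as genes (1524 higher, 1699 lower). No named gene changed direction under a floor of 1, quantile normalization, median centring or cyclic loess, none of which changed its probe. A floor of 1 moved 25 of 478 values of named genes, and list counts moved in 13 of 124 cases with the median over probes, 7 with a floor of 1 and 2 with cyclic loess.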
